A study of Mus musculus with 5 samples.

Results

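The genes described here are 7 organic anion transporters of the mouse hepatocyte, picked by symbol from the 32285 genes of the deposited feature list: Slco1a1, Slco1a4, Slco1b2, Slco2b1, Slc22a7, Abcc2 and Abcc3. Each of the 7 symbols was present once. The set had been named for anion and cation transporters, but all 7 are known as carriers of organic anions, and the organic cation transporter Slc47a1 was measured as a related gene only. The cells were hepatocytes isolated from livers of male WT C57BL/6J mice kept on Normal Chow:lab diet #5053. Every mouse had been accustomed over 3 days to a cycle of 16 h without food at night and 8 h with food by day, and chow was combined with 20% sucrose in the water before sampling. The fed (0 h) library, whose title gives it as fed for 4 h (Fed4h), was taken at clock hour 13. The libraries fasted for 4, 8, 16 and 24 h were taken at clock hours 17, 21, 5 and 13. Each time was 1 library, and neither the mice's age nor their number per library was stated in the sources used here. No difference between conditions could therefore be tested: each ratio compares 2 libraries, and fasting time and clock hour cannot be told apart except between 24 h and fed.

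Hepatocytes take up bile acids, bilirubin conjugates, steroid and thyroid hormone conjugates and many drugs from sinusoidal blood through organic anion transporting polypeptides, which the Slco genes encode, and through organic anion transporter 2, which Slc22a7 encodes. Conjugates made inside the cell leave across the canalicular membrane into bile through multidrug resistance-associated protein 2, the product of Abcc2, or return to blood across the basolateral membrane through multidrug resistance-associated protein 3, the product of Abcc3. Hepatocytes near the portal vein and near the central vein differ in many transcripts, with Cyp2f2 as a periportal and Cyp2e1 as a pericentral landmark. Slco1a1 is known as a male-biased gene of mouse liver.

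In GENCODE M21 (GRCm38, the build that the submitters' processing notes name as mm10), 3 of the transporters lie close together: Slco1b2 at chr6:141629518-141686646 on the plus strand (ENSMUSG00000030236), Slco1a4 at chr6:141805440-141856199 on the minus strand (ENSMUSG00000030237) and Slco1a1 at chr6:141907282-141946962 on the minus strand (ENSMUSG00000041698). The others are Slco2b1 at chr7:99657804-99711340, minus strand (ENSMUSG00000030737), Slc22a7 at chr17:46432183-46438457, minus strand (ENSMUSG00000067144), Abcc2 at chr19:43782192-43840740, plus strand (ENSMUSG00000025194), and Abcc3 at chr11:94343295-94392997, minus strand (ENSMUSG00000020865). RefSeq promoter windows (GRCm38.p6, 250 bases before to 50 bases after an annotated start) matched 5 of the 7 genes by symbol, all but Slc22a7 and Abcc3. The windows of the chromosome 6 neighbours are shown because 1 of them, Slco1a1, carried the largest difference from fed of the 7 while the others did not share it, and that of Abcc2 because its level moved with that of Slco1b2 at 16 h. They run 5′ to 3′ on the gene's strand, and capitals mark matches to the letters searched on both strands, as described after them.
Slco1a1 (chr6:141946913-141947212, minus strand): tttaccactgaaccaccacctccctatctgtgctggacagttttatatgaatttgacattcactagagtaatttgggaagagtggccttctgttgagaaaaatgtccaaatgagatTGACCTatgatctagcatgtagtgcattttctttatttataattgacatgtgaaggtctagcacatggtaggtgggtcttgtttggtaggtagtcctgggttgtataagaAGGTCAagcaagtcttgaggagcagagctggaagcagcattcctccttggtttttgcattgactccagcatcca
Slco1a4 (chr6:141856171-141856470, minus strand): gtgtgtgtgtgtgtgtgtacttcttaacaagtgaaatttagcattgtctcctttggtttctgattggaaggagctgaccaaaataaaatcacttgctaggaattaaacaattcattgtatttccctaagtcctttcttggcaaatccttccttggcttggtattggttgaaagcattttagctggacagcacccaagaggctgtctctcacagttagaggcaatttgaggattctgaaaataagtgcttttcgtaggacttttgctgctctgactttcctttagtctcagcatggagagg
Slco1b2 (chr6:141629268-141629567, plus strand): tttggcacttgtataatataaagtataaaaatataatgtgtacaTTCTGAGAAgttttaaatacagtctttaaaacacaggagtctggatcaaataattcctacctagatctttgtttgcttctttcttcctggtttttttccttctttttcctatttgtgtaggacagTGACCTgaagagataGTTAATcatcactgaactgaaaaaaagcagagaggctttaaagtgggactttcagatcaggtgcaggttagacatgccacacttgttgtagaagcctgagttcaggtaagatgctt
Abcc2 (chr19:43782058-43782357, plus strand): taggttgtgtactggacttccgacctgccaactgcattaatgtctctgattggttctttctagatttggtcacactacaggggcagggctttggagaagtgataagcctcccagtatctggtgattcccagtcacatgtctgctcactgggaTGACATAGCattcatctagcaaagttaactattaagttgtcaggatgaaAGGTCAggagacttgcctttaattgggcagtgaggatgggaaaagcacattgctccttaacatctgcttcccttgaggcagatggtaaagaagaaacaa

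The letters searched were AGGTCA, a half-site of nuclear receptors; TGACNNNGC, the core of the antioxidant response element; GTTAAT, a half-site of HNF1; and TTCNNNGAA, the element of STAT proteins. Of 32851 promoter windows of the same length, 16.3% held AGGTCA, 12.4% held TGACNNNGC, 7.10% held GTTAAT and 8.30% held TTCNNNGAA on either strand. The Slco1a1 window held AGGTCA 2 times, at base 227 on the gene's strand and at base 117 as its reverse complement TGACCT, counted from 1 at the window's 5′ end. The Slco1b2 window held TTCNNNGAA at base 45, TGACCT at base 170 and GTTAAT at base 185, and the Abcc2 window held TGACNNNGC at base 153 and AGGTCA at base 202. No match shared a base with another, and the Slco1a4 window held none of the 4 letter strings. These matches describe the letters of the windows only.

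Hepatocytes were barcodes with 1000 or more UMIs, 500 or more genes and 2 to 30% mitochondrial UMIs, less 332 barcodes of 1 endothelial-like cluster. In time order 7601, 4559, 2704, 9077 and 4537 cells remained, with 33461397 to 45503295 nuclear-encoded UMIs a library. The median cell held 5575, 12143, 15060, 4406 and 9082 UMIs in time order, so shares of cells were compared after thinning each cell to 1000 UMIs. All 10 hepatocyte marker genes together took 8.92 to 11.9% of nuclear-encoded UMIs in each library, and the 12 endothelial markers summed to 5.21 to 19.5 CPM there against 8467 CPM in the endothelial-like cells. That cluster also held 3080 CPM of Kupffer cell and macrophage markers, 3093 CPM of stellate cell markers and 685 CPM of T and NK cell markers, so it was a mixed pool of cells other than hepatocytes. Most hepatocyte clusters came from 1 library, and 4 of 19 clusters (3766 cells, 4.70% of the hepatocytes' UMIs) had shallow cells and stayed unnamed, but met the rule and were kept. Across libraries 259 of 49740 barcode sequences occurred more than 1 time. Levels are given as CPM, UMIs of a gene per 1000000 nuclear-encoded UMIs summed over the hepatocytes of a library, with exact 95% Poisson intervals; these cover counting error only.

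Slco1a1, which encodes the uptake carrier Oatp1a1, was near its fed level at 8 and 16 h over all hepatocytes and far lower at 24 h. Its level was 285 CPM in the fed library, 172 CPM at 4 h, 291 CPM at 8 h, 290.2 CPM at 16 h and 31.4 CPM at 24 h. The 24 h library stood apart from the other 4, the 4 h library was intermediate, and the intervals of the 16 h library overlapped those of both the fed (280.0 to 291 CPM) and the 8 h (285 to 297 CPM) libraries. The 16 h log2 ratio to fed was 0.02, but ran from -0.66 without the acute-phase-high cells described further on to 0.36 in barcodes under 2% mitochondrial UMIs, and had the other sign in 5 of 16 alternatives. At 24 h Slco1a1 was 9.10-fold below fed (log2 ratio -3.19, 95% interval -3.27 to -3.10). The contrast at the same clock hour thus held the largest difference from fed of any transporter at any time. At 4 h it was 1.66-fold lower (log2 ratio -0.73, -0.77 to -0.69), short of the 2-fold used here to count a transporter as different, though the log2 ratio was -1.26 over cells with 2 to 15% mitochondrial UMIs.

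The 24 h level of Slco1a1 was low in every part of the cell population that was separated. In the 2 named 24 h hepatocyte clusters it was 31.0 and 43.3 CPM, while hepatocyte clusters that came mainly from the other 4 libraries ranged from 137 to 462 CPM. The UMI and gene minimums were met by 9999, 9999, 3325, 9363 and 10000 of 10000 deposited barcodes a library in time order. Of these, 2172, 5345, 576, 234 and 5400 held under 2% mitochondrial UMIs and were not among the hepatocytes. Whether these barcodes are nuclei, damaged cells or droplets with free RNA was not tested. They carried Slco1a1 at 93.2 CPM in the fed library and 5.73 CPM at 24 h. After thinning, 24.3% of fed hepatocytes (23.4 to 25.3%, exact Clopper-Pearson interval) and 2.69% of 24 h hepatocytes (2.24 to 3.20%) had a Slco1a1 UMI. Endothelial-like cells, which should lack most of these carriers, had 4.28% (2.36 to 7.08%), but they were pooled over libraries, with 225 of 332 from the fed library, 12 from 8 h and 39 from 24 h. In barcodes under 2% mitochondrial UMIs of the 24 h library itself the thinned share was 0.648% (0.45 to 0.90%), below that of the 24 h hepatocytes. Shares in endothelial-like cells given for the other transporters are from the same pool. Unthinned shares were 64.2% at 0 h and 19.4% at 24 h, with a median of 4849 and 7285 nuclear-encoded UMIs, and 7.23% in endothelial-like cells with a median of 1749.

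**Figure D1:**
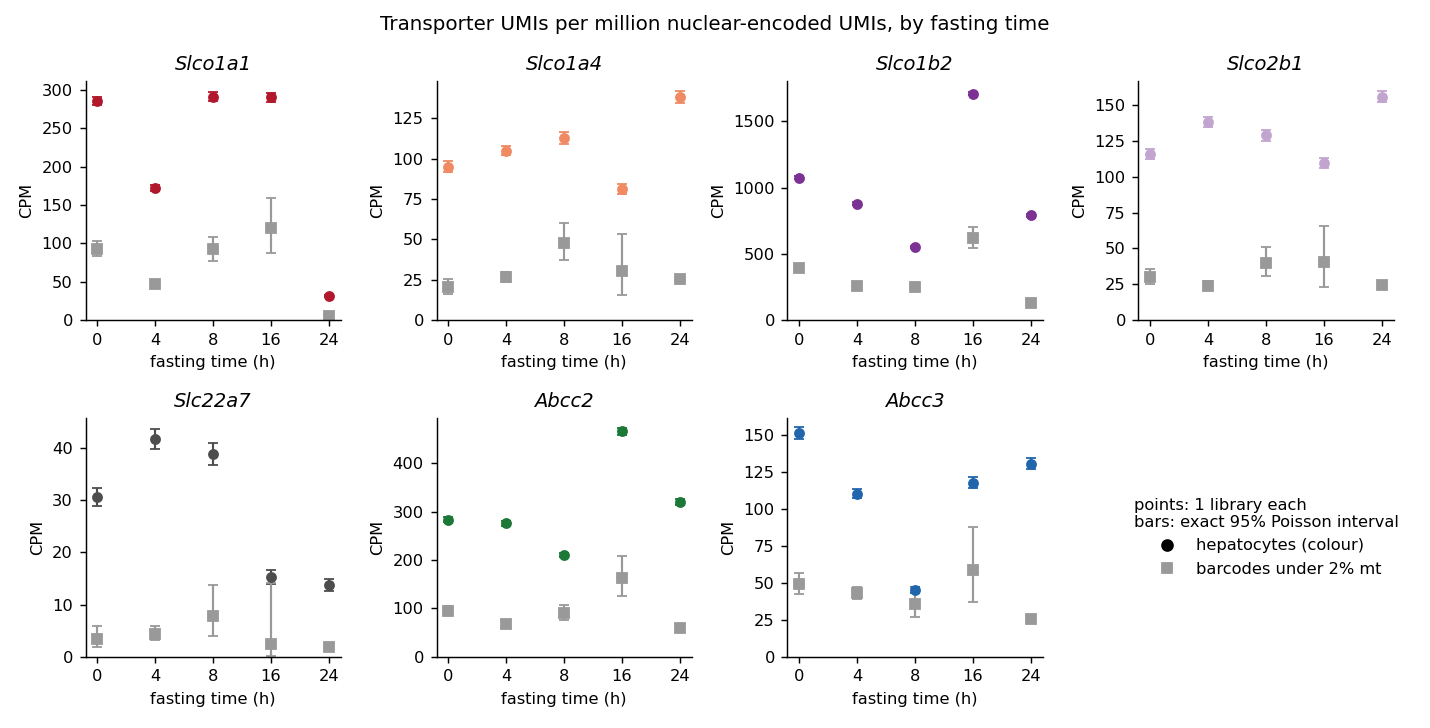
CPM of each transporter (y axis, each panel on its own scale from 0) against fasting time in h (x axis). Coloured circles are hepatocytes and grey squares are barcodes under 2% mitochondrial UMIs, 1 library a point, with exact 95% Poisson intervals; the 24 h Slco1a1 circle at 31.4 CPM lies far under the other 4, and Slco1b2 and Abcc2 peak at 16 h.

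Slco1a4 encodes Oatp1a4, a further sinusoidal uptake carrier for bile acids and drugs, and it showed the opposite order to its neighbour at 24 h. Its level was 95.1 CPM in the fed library, 105 CPM at 4 h, 113 CPM at 8 h, 81.3 CPM at 16 h and 138 CPM at 24 h. No 2 neighbouring libraries in this order had overlapping intervals, but the whole range was 1.70-fold. The 24 h library was highest, 1.45-fold above fed (log2 ratio 0.54, 0.47 to 0.60). Among barcodes under 2% mitochondrial UMIs the order was another, with 20.4, 26.5, 47.8, 30.5 and 25.6 CPM in time order, so the 8 h library was highest there and the log2 ratio of 24 h to 16 h was -0.25 in place of 0.76. Endothelial-like cells held 5 UMIs of it, 7.22 CPM.

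Slco1b2, which encodes Oatp1b2, the liver-specific carrier of bile acids, unconjugated bilirubin and statins, was lowest at 8 h and highest at 16 h over all hepatocytes. Its level was 1076 CPM in the fed library, 880 CPM at 4 h, 555 CPM at 8 h, 1710 CPM at 16 h and 790 CPM at 24 h. All 5 intervals were apart from each other, and the lowest and highest libraries followed each other in time. Slco1b2 was 1.94-fold below fed at 8 h (log2 ratio -0.96, -0.98 to -0.93) and 1.59-fold above fed at 16 h (log2 ratio 0.67, 0.65 to 0.69), both short of 2-fold. Between 8 h and 16 h it was 3.08-fold higher (log2 ratio 1.62, 1.60 to 1.65), and between 16 h and 24 h it was 2.17-fold lower (log2 ratio -1.11, -1.13 to -1.09). Scaled by median-of-ratios factors, the last of these steps was just under 2-fold. The lowest place depended on the cells kept: with 2 to 15% mitochondrial UMIs the log2 ratio of 8 h to 4 h was 0.0072 in place of -0.66, and in barcodes under 2% the 24 h library was lowest, at 127 CPM against 246 CPM at 8 h, while 16 h stayed highest at 618 CPM. Slco1b2 at 8 h had a log2 ratio to fed of -1.07 without the acute-phase-high cells. Thinned shares of cells with a UMI had the same order, from 41.7% at 8 h to 73.8% at 16 h, against 16.8% of endothelial-like cells.

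Slco2b1 encodes Oatp2b1, an uptake carrier with broad substrates that is also found outside the liver, and it varied least of the 7 between libraries. Its level was 116 CPM in the fed library, 138 CPM at 4 h, 129 CPM at 8 h, 109.6 CPM at 16 h and 156 CPM at 24 h. The fed and 16 h libraries overlapped in their intervals, the 24 h library was highest, and the range was 1.42-fold. At 24 h it was 1.35-fold above fed (log2 ratio 0.43, 0.37 to 0.49). Among barcodes under 2% mitochondrial UMIs this order was the other way, with 30.1 CPM in the fed library and 24.5 CPM at 24 h. Thinned shares of hepatocytes with a UMI stayed between 10.6% and 12.4%, against 4.89% of endothelial-like cells. The antisense genes Gm15635 and Gm34280 share 471 and 78 exon bases with Slco2b1, but held at most 3 and 17 UMIs in the hepatocytes of any library.

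Slc22a7 encodes Oat2, an uptake carrier of small organic anions and nucleotide metabolites, and its fasted libraries lay on both sides of fed. Its level was 30.6 CPM in the fed library, 41.7 CPM at 4 h, 38.8 CPM at 8 h, 15.2 CPM at 16 h and 13.7 CPM at 24 h. The 4 h and 8 h libraries were high with overlapping intervals, and the 16 h and 24 h libraries were low with overlapping intervals. At no time did it reach the 50 CPM needed to be counted, so its ratios of -1.01 (-1.16 to -0.85) at 16 h and -1.16 (-1.31 to -1.01) at 24 h against fed, on the log2 scale, are given as values only. Thinned shares were 3.17% in the fed library and 1.54% and 1.08% at 16 h and 24 h, while 1 of the endothelial-like cells that could be thinned had a UMI (0.306%, 0.00774 to 1.69%).

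Abcc2, the canalicular export pump for bilirubin glucuronides and glutathione conjugates, followed the order of Slco1b2 at 8 and 16 h. Its level was 284 CPM in the fed library, 276 CPM at 4 h, 211 CPM at 8 h, 466 CPM at 16 h and 320.1 CPM at 24 h. The 16 h library stood above the other 4, the 8 h library was lowest, and only the fed and 4 h intervals overlapped. The lowest place depended on the cells kept. In barcodes under 2% mitochondrial UMIs 24 h was lowest at 59.5 CPM, 8 h (90.9 CPM) lay above 4 h (67.4 CPM), and 16 h stayed highest at 163 CPM. The log2 ratio of 8 h to 4 h was 0.43 there in place of -0.39, and had the other sign in 2 of 16 alternatives. Abcc2 was 1.64-fold above fed at 16 h (log2 ratio 0.72, 0.68 to 0.75) and 2.21-fold above the 8 h library (log2 ratio 1.15, 1.11 to 1.19). Thinned shares ranged from 20.5% at 8 h to 37.2% at 16 h, against 2.14% of endothelial-like cells. The intervals of the 8 h (19.0 to 22.1%) and 4 h (19.9 to 22.3%) shares overlapped.

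Abcc3, the basolateral export pump that returns glucuronides and bile acids to blood, was lowest at 8 h. Its level was 151 CPM in the fed library, 110.3 CPM at 4 h, 45.1 CPM at 8 h, 118 CPM at 16 h and 131 CPM at 24 h. The fed library was highest, the 8 h library stood far below the other 4, and no intervals of neighbours in this order overlapped. At 8 h Abcc3 was 3.35-fold below fed (log2 ratio -1.75, -1.83 to -1.66) and 2.45-fold below the 4 h library (log2 ratio -1.29, -1.38 to -1.21), and at 16 h it was 2.61-fold above the 8 h library (log2 ratio 1.38, 1.30 to 1.47). The thinned share of cells with a UMI was 13.5% in the fed library and 4.37% (3.63 to 5.21%) at 8 h. It was 4.59% (2.59 to 7.45%) in the pooled endothelial-like cells, which came mainly from the fed library, and 4.00% (2.55 to 5.94%) in barcodes under 2% mitochondrial UMIs of the 8 h library. The 8 h share was thus not apart from that of these barcodes. In barcodes under 2% mitochondrial UMIs the 8 h and fed levels lay closer together, at 36.0 CPM (27.1 to 46.8 CPM) and 49.2 CPM (42.6 to 56.6 CPM).

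Counted against fed with at least 2-fold and 50 CPM in either library, 0 of 6 transporters that reached the minimum were higher at any time. At 4 h 0 of 6 were lower, where 5.88% of 2941 genes were higher and 5.92% lower. At 8 h 1 of 6, Abcc3, was lower, where 8.1% of 3013 genes were higher and 11.7% lower. At 16 h 0 of 6 were lower, where 3.38% of 2985 genes were higher and 4.12% lower. At 24 h 1 of 6, Slco1a1, was lower, where 6.75% of 2976 genes were higher and 10.6% lower. The median log2 ratio of the counted transporters to fed was -0.16, -0.20, -0.03 and -0.02 at 4, 8, 16 and 24 h, against -0.03, -0.04, 0.0045 and -0.02 for all genes tested. A count of 0 or 1 in 6 is near these shares. Abcc3 at 8 h and Slco1a1 at 24 h reached 50 CPM only in the library where they were high, so passing the minimum was not independent of the difference. Of the 5 transporters at 50 CPM in both libraries 0 were 2-fold from fed at 8 or 24 h. The same holds for some genes of the lists counted further on, and these counts are a description. The split of the genes that were 2-fold from fed depended on scaling: 49.9, 40.9, 45.1 and 39.0% of them were higher at 4, 8, 16 and 24 h, and 60.9, 55.5, 48.9 and 52.6% with TMM scaling, while 37.2% were higher at 4 h with all UMIs as the denominator. Abcc3 at 8 h and Slco1a1 at 24 h were at least 2-fold lower under each of these scalings.

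**Figure D2:**
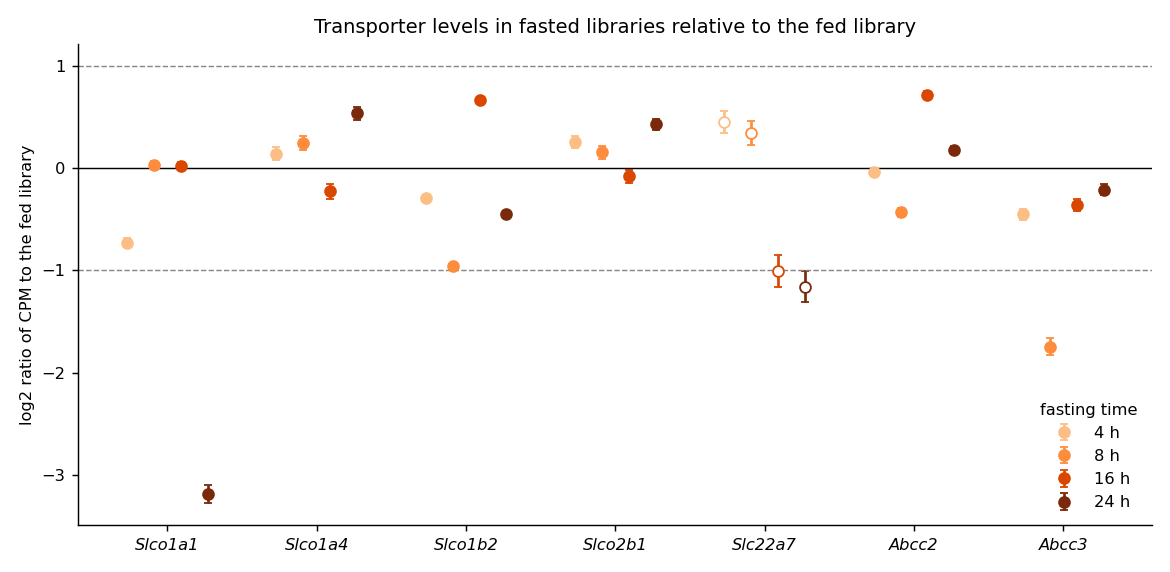
Log2 ratio of CPM to the fed library (y axis) for each transporter (x axis), with 1 point for each of the 4, 8, 16 and 24 h libraries and exact conditional 95% intervals. Dashed lines mark 2-fold and open circles mark Slc22a7, which never reached 50 CPM; the filled points past a dashed line are Slco1a1 at 24 h (-3.19) and Abcc3 at 8 h (-1.75).

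Consecutive fasted libraries, which do not share the fed library, were compared next, and each step held at least 1 transporter past 2-fold. From 4 h to 8 h, 1 of 6 transporters was at least 2-fold lower (Abcc3) and 0 were higher, where 2.22% of all genes tested were lower and 1.14% higher. From 8 h to 16 h, 3 of 6 were higher (Slco1b2, Abcc2 and Abcc3) and 0 lower, where 11.3% of genes were higher and 9.71% lower. From 16 h to 24 h, 2 of 6 were lower (Slco1a1 and Slco1b2) and 0 higher, where 6.96% of genes were lower and 7.53% higher. Slco1a1 was 9.25-fold lower in that last step (log2 ratio -3.21, -3.30 to -3.12). In barcodes under 2% mitochondrial UMIs the step from 8 h to 16 h was 1.33 for Slco1b2, 0.84 for Abcc2 and 0.70 for Abcc3 on the log2 scale. Abcc3 in both steps next to 8 h and Slco1a1 in the last reached 50 CPM only in the higher library, so nothing is read from these counts beyond the values. With TMM scaling 40.4% of all 2-fold genes in that step were higher in place of 53.9%, and 62.4% in place of 52.0% from 16 h to 24 h, and with all UMIs as the denominator 62.8% in place of 34.0% from 4 h to 8 h.

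The 16 h library also differed in acute-phase transcripts, which hepatocytes make in response to inflammatory cytokines. The 15 genes of the acute-phase list summed to 29357 CPM at 16 h against 9250 to 14055 CPM in the other libraries, and 5 of 14 past the minimum were at least 2-fold above fed and 1 below, where 3.38% of all genes were higher and 4.12% lower. Fgb was at 6917 CPM against 2645 to 3140 CPM, Fgg at 5386 CPM against 1974 to 2963 CPM and Hp at 2335 CPM against 1554 to 2381 CPM. Within the 16 h library, cells above the median in Saa1, Saa2, Saa3 and Lcn2 UMIs carried Slco1a1 at 380.0 CPM and cells below it at 184 CPM. Slc22a7 was also higher in the cells above the median at 16 h, at 19.6 against 10.1 CPM. At 4 h the order was the other way for Slco1a1, with 142 CPM above and 199 CPM below the median, and Slco1b2 there was at 669 and 1063 CPM. Without the cells above the median in each library the log2 ratio of Slco1a1 to fed at 16 h was -0.66 in place of 0.02. Slco1b2 at 16 h differed little between these cells, at 1730 and 1686 CPM, as did Abcc2 at 448 and 488 CPM. The part of the acute-phase transcripts in these levels was not tested.

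Cells were then ordered within each library by log2 of Cyp2f2 over Cyp2e1, both per 10000 nuclear-encoded UMIs plus 1, and cut into 3 equal parts; these are parts of a range, not positions in the tissue. In the fed library Slco1b2 was at 767 CPM in the Cyp2f2-high part, 765 CPM in the middle and 1997 CPM in the Cyp2e1-high part. The step lay between the middle and the Cyp2e1-high part, and the same shape recurred at 4, 8 and 16 h. The log2 ratio of the Cyp2f2-high to the Cyp2e1-high part was -1.38 (-1.42 to -1.35) in the fed library. In the 4 h library it was -1.56 (-1.59 to -1.53) and in the 8 h library -1.25 (-1.30 to -1.20), and the 16 h interval ran from -1.53 to -1.47. Slco1b2 was thus 2.37-fold to 2.95-fold higher at the Cyp2e1-high end in those 4 libraries.

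Abcc3 had the same direction, with a log2 ratio of -0.69 (-0.78 to -0.60) in the fed library. The fasted libraries had -0.81 (-0.91 to -0.72), -0.64 (-0.83 to -0.46) and -1.09 (-1.21 to -0.98) at 4, 8 and 16 h. At 16 h it ran from 85.1 CPM in the Cyp2f2-high part over 91.6 CPM to 182 CPM in the Cyp2e1-high part. Slco1a1 was also higher at the Cyp2e1-high end, with log2 ratios of -0.48, -0.82, -0.35 and -0.73 at 0, 4, 8 and 16 h, and Abcc2 with -0.45, -0.45, -0.43 and -0.50. For these 4 genes the Cyp2e1-high part was the highest in each of the fed, 4 h, 8 h and 16 h libraries.

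Slc22a7 alone among the 7 was higher at the Cyp2f2-high end by an interval apart from 0 in all 5 libraries. At 4 h its level was 52.7 CPM in the Cyp2f2-high part, 43.7 CPM in the middle and 14.8 CPM in the Cyp2e1-high part, a 3.56-fold difference (log2 ratio 1.83, 1.58 to 2.09). In the fed library the ratio was 1.02 (0.77 to 1.29), but 0.61 without the shallow unnamed clusters and 0.48 in cells with 3000 or more UMIs, and in the 8 h and 16 h libraries it was 0.80 (0.57 to 1.04) and 0.54 (0.20 to 0.90). Slco1a4 and Slco2b1 were nearly level along the axis from 0 to 16 h, with log2 ratios between -0.17 and 0.09, and at most 1.13-fold between ends. This level course depended on the mitochondrial limits: with 2 to 15% mitochondrial UMIs the 4 h ratios were 0.88 for Slco1a4 and 0.96 for Slco2b1, and with no lower limit both lay between 0.42 and 0.60 in the fed and 4 h libraries. At 4 h Abcc2 turned from -0.45 to 0.39 with 2 to 15%, and Slco1b2 was at -0.83 in place of -1.56.

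**Figure D3:**
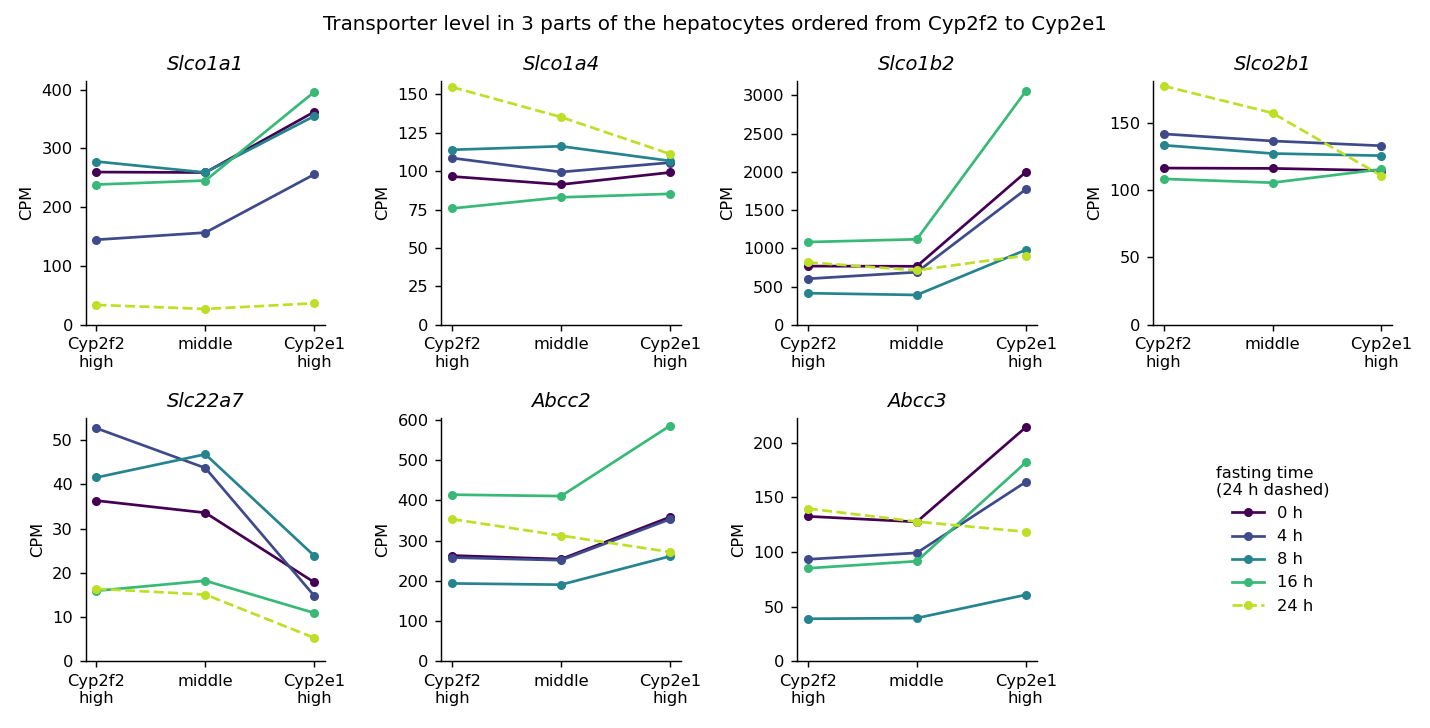
CPM of each transporter (y axis, each panel on its own scale from 0) in the Cyp2f2-high, middle and Cyp2e1-high parts of the hepatocytes (x axis), 1 line for each library. Slco1b2, Abcc3, Slco1a1 and Abcc2 step up in the Cyp2e1-high part from 0 to 16 h and Slc22a7 steps down. In the dashed 24 h lines Abcc2 and Abcc3 are lowest in that part, while Slco1b2 goes from 712 to 906 CPM and Slco1a1 from 26.8 to 36.5 CPM.

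At 24 h the ends of the axis were nearly alike for Slco1b2, with 816 CPM in the Cyp2f2-high part, 712 CPM in the middle and 906 CPM in the Cyp2e1-high part (log2 ratio -0.15, -0.19 to -0.11). Abcc3 (0.24, 0.12 to 0.35) and Abcc2 (0.38, 0.30 to 0.45) were higher at the Cyp2f2-high end by less than 1.5-fold, and so was Slco1a4 (0.48, 0.36 to 0.59), while Slco2b1 was 1.60-fold higher there (0.68, 0.57 to 0.80). The parts themselves differed in depth: 70.6% of cells in the 24 h Cyp2e1-high part lay in the shallow unnamed clusters, with a median of 3016 UMIs against 11152 UMIs in the Cyp2f2-high part. The same held at 4 h, with 47.3% of cells and 3087 against 18960 UMIs, and less so in the fed library, with 32.7% and 3300 against 5702 UMIs. The landmarks were also less apart, with Glul, a pericentral enzyme, at 41.9 CPM in the Cyp2e1-high and 54.7 CPM in the Cyp2f2-high part at 24 h, against 251 and 29.4 CPM at 16 h. Without the unnamed clusters the 24 h log2 ratios were -0.20 for Slco1b2, 0.08 for Abcc3, 0.03 for Abcc2, 0.13 for Slco1a4, 0.17 for Slco2b1 and 0.51 for Slc22a7 in place of 1.63. The Slco2b1 and Slc22a7 ratios were thus smaller without these clusters. The 24 h Slco1b2 ratio had the other sign in 3 of 10 alternatives, at 1.09 with 2 to 15% mitochondrial UMIs, 0.84 with no lower mitochondrial limit and 0.40 as a mean over cells, and it was -0.38 on an axis of several landmark genes. Its direction at 24 h therefore depended on which cells were kept and how they were weighted.

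**Figure D4:**
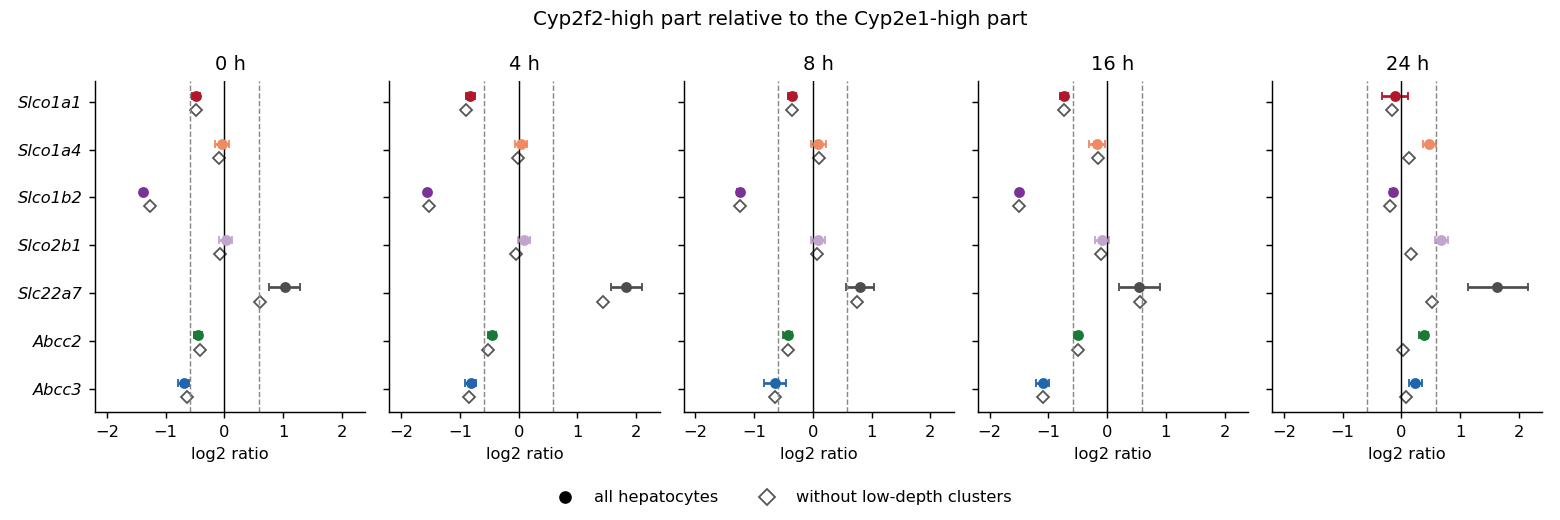
Log2 ratio of CPM in the Cyp2f2-high part to that in the Cyp2e1-high part (x axis) for each transporter (y axis), 1 panel a library. Filled circles with exact conditional 95% intervals are all hepatocytes, open diamonds leave out the shallow unnamed clusters, and dashed lines mark 1.5-fold; Slco1b2 lies between -1.56 and -1.25 up to 16 h and at -0.15 at 24 h.

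Counted at 1.5-fold or more with 50 CPM in either part, transporters higher at the Cyp2e1-high end numbered 2 in the fed library (Slco1b2 and Abcc3; 3.74% of 2811 genes tested), 3 at 4 h (with Slco1a1; 6.68%), 2 at 8 h (Slco1b2 and Abcc3; 3.44%), 3 at 16 h (with Slco1a1; 5.77%) and 0 at 24 h (17%). Transporters higher at the Cyp2f2-high end numbered 0 in the fed library (1.6% of genes), 1 at 4 h (Slc22a7; 4.07%), 0 at 8 h (1.44%), 0 at 16 h (2.61%) and 1 at 24 h (Slco2b1; 7.98%). The percentages give the share of all genes tested in that library that were higher at the same end. Abcc3 at 8 h reached 50 CPM only in the Cyp2e1-high part (39.0, 39.6 and 60.9 CPM from the Cyp2f2-high part on), where it was high. Slc22a7 reached 50 CPM at 4 h only through the part where it was high; at 0, 8 and 24 h it was 2.03-fold, 1.74-fold and 3.09-fold higher at the Cyp2f2-high end but under the minimum, so the counts for that end follow the minimum. Slco1b2 was counted in the 4 libraries up to 16 h under each of 10 alternatives. Abcc3 lost its count in 2 of 10 in the fed library (log2 ratio -0.52 with no lower mitochondrial limit), in 3 at 4 h (-0.21 with 2 to 15% mitochondrial UMIs and -0.40 with no lower limit) and in 1 at 8 h. Slco1a1 at 4 h lost its count in 3 of 10 (-0.39 and -0.31 under those mitochondrial limits), Slc22a7 at 4 h in 2 and Slco2b1 at 24 h in 5.

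Differences from fed were also read within each part. Slco1a1 at 24 h was lower in all of them, with log2 ratios of -2.95 (-3.09 to -2.81), -3.27 (-3.42 to -3.13) and -3.31 (-3.50 to -3.13) from the Cyp2f2-high to the Cyp2e1-high part. Slco1b2 at 24 h was 0.09 above fed in the Cyp2f2-high part and -1.14 (-1.18 to -1.10) in the Cyp2e1-high part, where the fed level was 1997 CPM. The 24 h and fed Cyp2e1-high parts held unlike cells, with 70.6% and 32.7% of them in the shallow unnamed clusters. Cyp2e1 was at 2345 and 5270 CPM in these parts and Glul at 41.9 and 307 CPM. This limit applies to each 24 h ratio of the Cyp2e1-high part. At 16 h Slco1b2 was above fed in every part, by 0.50, 0.55 and 0.61, and so was Abcc2, by 0.65, 0.69 and 0.71. Abcc3 at 24 h was 0.08 (-0.02 to 0.17) against fed in the Cyp2f2-high part and -0.85 (-0.97 to -0.74) in the Cyp2e1-high part, where the depth difference described for 24 h applies.

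**Figure D5:**
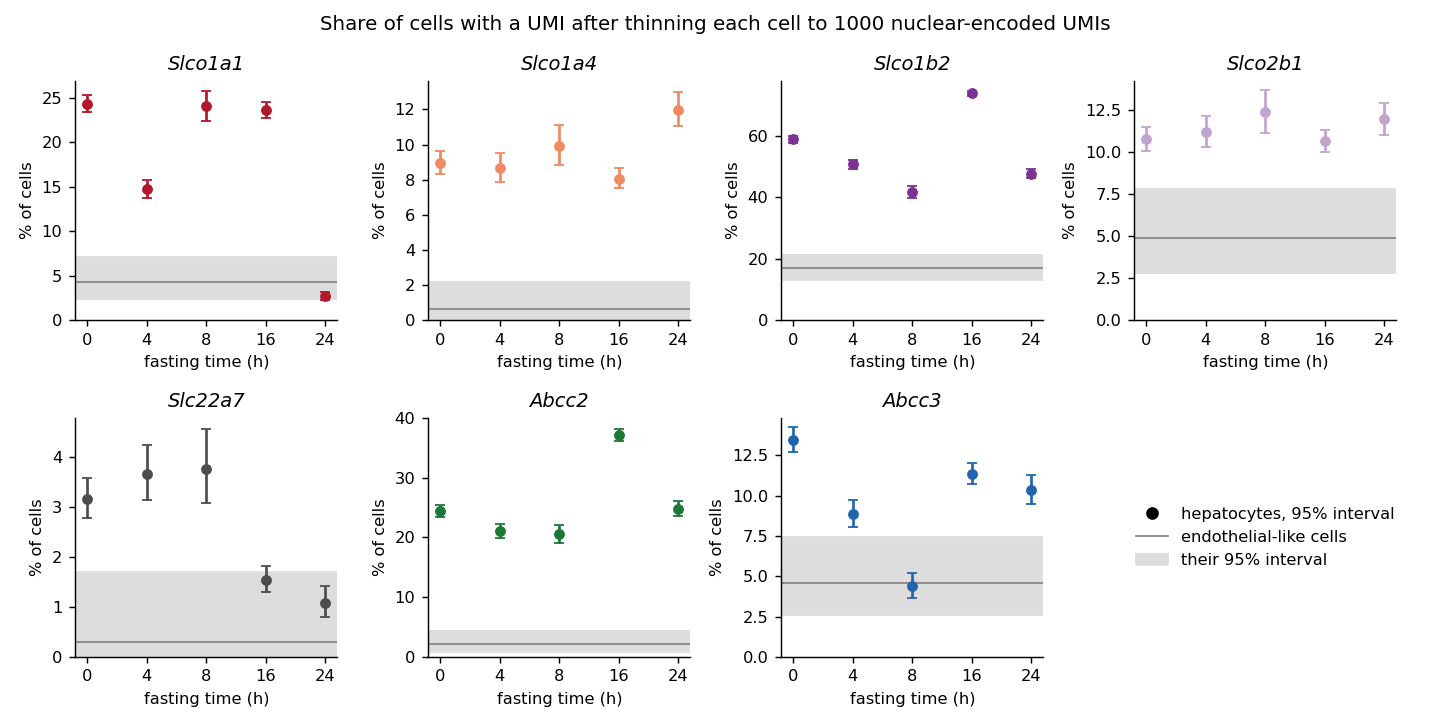
Share of hepatocytes with a UMI (y axis, %, each panel on its own scale from 0) against fasting time in h (x axis) after thinning cells to 1000 nuclear-encoded UMIs, with exact 95% intervals. The grey line and band give the share and interval in endothelial-like cells pooled over libraries, 225 of 332 of them from the fed library; Slco1a1 at 24 h (2.69%) and Abcc3 at 8 h (4.37%) lie under the grey line.

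Cells of 1 library varied in Slco1b2 beyond counting. Only cells with 5000 or more nuclear-encoded UMIs could be thinned to that depth, 3679 of 7601, 2840 of 4559, 2214 of 2704, 1756 of 9077 and 2739 of 4537 in time order. Among them the variance of Slco1b2 UMIs over cells was 3.88, 3.80, 2.51, 4.44 and 2.19 times its mean in time order, where a Poisson count gives a ratio of 1. This ratio grows with the mean, which was 2.87 to 8.54 UMIs a cell for Slco1b2, above that of each other transporter in each library. The excess of variance over the mean was therefore divided by the squared mean. On that scale Slco1b2 stood at 0.59, 0.58, 0.53, 0.40 and 0.27 in time order, the highest of the 7 in the fed and 8 h libraries. It was below Slc22a7 (0.78) at 4 h, Abcc3 (0.51) and Slco1a4 (0.41) at 16 h, and Slco1a1 (0.97) and Slco1a4 (0.37) at 24 h. These values carry no error and are given as a description.

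Other carriers of the hepatocyte were counted in the same way. Of 24 further organic anion uptake genes 7 reached 50 CPM, and 2 were at least 2-fold below fed at 8 h and 2 at 24 h, where 11.7% and 10.6% of all genes were. Slc22a30 was at 325 CPM in the fed library, 133 CPM at 8 h (log2 ratio -1.29) and 107 CPM at 24 h (-1.61). Slc17a3, a phosphate and urate carrier family member, had a log2 ratio of -1.59 at 8 h, and Slc16a1, the lactate and ketone carrier MCT1, had -1.14 at 24 h. Of 13 cation and carnitine carriers 3 reached the minimum, among them Slc47a1, and 0 were 2-fold from fed at any time. Slc47a1 lay between 58.8 and 94.0 CPM.

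Of 8 further canalicular genes 6 reached the minimum against fed at 24 h, and 2 of these, Abcg8 and Abcg5, which export sterols, were at least 2-fold higher, with log2 ratios of 1.73 and 1.12, where 6.75% of all genes were. Both reached 50 CPM only in the fasted libraries, with Abcg8 at 21.9 CPM in the fed library and 72.7 CPM at 24 h. Abcg8 was 1.41 at 8 h and 1.63 at 16 h, and the lipid flippase Atp8b1 was lower, at -1.73 at 8 h and -1.61 at 24 h, where 11.7% and 10.6% of all genes were. Of 9 further basolateral efflux genes 1, Abcc6, reached 50 CPM, at 8 h only, and 0 were 2-fold from fed. Of 6 listed membrane scaffolds 5 were found and 2 reached the minimum; Slc9a3r1 had a log2 ratio of -1.15 at 8 h.

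Of 17 regulators listed for these transporters 10 reached the minimum against fed; 1, 2, 1 and 3 were at least 2-fold higher at 4, 8, 16 and 24 h, where 5.88, 8.1, 3.38 and 6.75% of all genes were, and 1 was lower, at 8 h, where 11.7% were. Nr1i2, which encodes the xenobiotic receptor PXR, stood above fed in each fasted library, with log2 ratios of 1.02, 1.28, 0.19 and 1.07 in time order. Nr1i3, which encodes the receptor CAR, was at 1.07 at 24 h and Ppara at 1.23, while Hnf4a was at 1.03 at 8 h and Nr0b2 at 1.12 at 16 h. The lower one was Nfe2l2, which encodes the antioxidant-response factor NRF2, at 52.6 CPM in the fed library and 26.3 CPM at 8 h. These receptors are known to act on Slco and Abcc genes, and nothing here ties their levels to those of the transporters.

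Lists of the receptors' known targets were set beside the transporters. Of all genes tested 5.88, 8.1 and 6.75% were higher than fed at 4, 8 and 24 h, and 5.92, 11.7 and 10.6% lower, by at least 2-fold. Of 7 PXR and CAR targets past the minimum 1 was above fed at 4, 8 and 24 h, with Por at 160 CPM in the fed library, 738 CPM at 8 h and 518 CPM at 24 h, and 1 was lower at 24 h, Cyp2c29, at 846 and 116 CPM. Cyp3a11 was at 4743 CPM in the fed library and 4685 to 8120 CPM in the fasted ones. Of 7 antioxidant-response targets 2 were lower at 4 h, 1 at 8 h and 1 at 24 h, with 1 higher at 24 h; Gstm1, Gclm and Gclc had log2 ratios between -0.69 and 0.59 at 8, 16 and 24 h. Of 8 PPAR alpha targets past the minimum 4 were above fed at 24 h and 0 below, with Cyp4a14 at 727 CPM in the fed library and 3277 CPM at 24 h and a median log2 ratio of 1.30 over the list.

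Male-biased liver genes, the class to which Slco1a1 belongs, were counted because its difference lay at 24 h. Of 10 such genes past the minimum 8 were at least 2-fold below fed at 24 h and 0 above, with a median log2 ratio of -2.02, where 10.6% of all genes were lower with a median of -0.02. However, 5 of the 8 (Selenbp2, Cyp4a12a, Cyp4a12b, Cyp2u1 and C6) reached 50 CPM only in the fed library, and of 5 genes at 50 CPM in both libraries 3 were lower (Cyp7b1, Mup20 and Nudt7). At 4 h 3 of 11 were lower and 1 higher, with 10 of 11 below fed and a median of -0.47, where 5.92% of all genes were lower. At 8 h 2 of 11 were lower and 2 higher, with a median of 0.03, where 11.7% and 8.1% of all genes were. At 16 h 1 of 12 was lower and 1 higher, with a median of 0.0021, where 4.12% and 3.38% were. Mup20 was at 15695 CPM in the fed library and 6569 CPM at 24 h, Serpina3k at 12519 and 6682 CPM, and Cyp2d9 at 608 and 364 CPM. None of 11 female-biased genes reached the minimum; their sum was 7.18 CPM in the fed library and 53.5 CPM at 24 h, with Cyp17a1 at 5.33 and 27.8 CPM. All libraries were labelled male.

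Clock genes were counted because the libraries differed in clock hour. Of 8 past the minimum, of which only Hlf reached it in both libraries, 5 were at least 2-fold below fed at 8 h and 2 above, where 11.7% of all genes were lower and 8.1% higher. At 16 h 1 of 7 was lower (Per2) and 1 higher (Nr1d1), where 4.12% and 3.38% were. At 24 h, at the clock hour of the fed library, 1 of 5 was lower and 0 higher, where 10.6% were lower; the lower gene was Per2, at 58.1 CPM in the fed library and 17.8 CPM at 24 h. Hlf was at 165 CPM in the fed library, 76.6 CPM at 8 h and 153 CPM at 24 h, and Tef at 117, 42.3 and 129 CPM at the same times. The part of clock hour in the transporter levels was not tested.

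The 13 listed genes known to respond to cell isolation summed to 718, 658, 458, 930.2 and 424 CPM in time order, so the sum was highest at 16 h and lowest at 24 h. From 8 h to 16 h 4 of 6 past the minimum (Jun, Junb, Egr1 and Dusp1) were at least 2-fold higher, where 11.3% of all genes were, and from 16 h to 24 h the same 4 were lower, where 6.96% were. Dusp1 was at 225, 101, 76.6, 183 and 64.9 CPM in time order, Zfp36 lay between 121 and 168 CPM and Jund between 99.4 and 140.2 CPM. Of these 4, Jun, Junb and Egr1 reached 50 CPM at 16 h but not at 8 or 24 h. In the first step Slco1b2, Abcc2 and Abcc3 were higher as well, while Slc22a7 (log2 ratio -1.35), Slco1a4 (-0.47) and Slco2b1 (-0.23) were lower. Slco1a1 was level in that step (-0.0051). In the second Slco1a1 (-3.21) and Slco1b2 (-1.11) were lower by at least 2-fold, and Abcc2 (-0.54, -0.58 to -0.51) by less. Slc22a7 was at -0.15 (-0.33 to 0.03), while Slco1a4 (0.76), Slco2b1 (0.51) and Abcc3 (0.15) were higher. The part of cell isolation in these levels was not tested.

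The genes whose levels were most like those of each transporter were found among 2680 genes with a mean of 50 CPM or more, by Pearson's r of log2(CPM + 5) over 15 points, the 3 axis parts of the 5 libraries. The points of a library share its depth and its cells, so r is a description with no p. Nearest to Slco1a1 were Cyp4a12a (0.98), a male-biased cytochrome P450, Tardbp (0.96) and the complement gene C6 (0.95). Nearest to Slco1a4 were Ndrg2 (0.93), Reep6 (0.92) and Sardh (0.91), and nearest to Slco2b1 were Mettl7a1 (0.96), Dpyd (0.92) and Polr2m (0.90). Slco1b2 was most like AW112010 (0.95), Mgst1 (0.95) and Rnase4 (0.93). Slc22a7 was most like Srd5a1 (0.97), Acp5 (0.89) and Slc39a14 (0.86), Abcc2 most like Mmd (0.98), Ctsl (0.96) and Plpp3 (0.95), and Abcc3 most like Slc16a12 (0.97), Pcsk6 (0.95) and Snap47 (0.93). No transporter was among the 3 genes nearest to another. Slc22a7, with a mean of 26.2 CPM, was under the minimum and could not have been listed.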

How the data were processed

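Male C57BL/6J hepatocytes from 5 times (0, 4, 8, 16 and 24 h of fasting) were each measured as 1 library with 10x Genomics 3' v3 chemistry, per the labels' protocols. The authors deposited raw UMI counts per gene and barcode, and the submitters' processing notes name Cell Ranger 6.0.1 and mm10; the counts were used as deposited, with 0 unused columns of per-sample values. Whether counting used strand is not stated in those sources. The transporters and gene lists were chosen with earlier results of these data known.

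Clusters (scanpy 1.11.5, leidenalg 0.10.2, 2000 variable genes, 30 components, 15 neighbours, resolution 1, seed 1) were named by fixed markers, and only the endothelial-like cluster was left out. No doublet caller was run. UMIs were summed per library (total 40002260 to 68330252 UMIs over all barcodes) and divided by nuclear-encoded UMIs. Ratios have exact conditional binomial 95% intervals (scipy 1.17.1); with 1 library a time there are no p-values or replicates, and intervals cover counting error only. On simulated Poisson counts of 3287 genes for the 24 h and fed libraries, 100% of 4-fold changes past the minimum were recovered and 94.9% of intervals covered the true ratio. The intervals assume such counts, so this checks the computation only. Variation between cells or between libraries was not simulated. Of runs of 50 bases in Slco1a1 and Slco1a4 transcripts, at most 1.58% occurred in 1 other carrier gene, and 0 of those in the last 500 bases of their transcripts, near which 3' libraries take reads, occurred in any other. Transporters were named throughout. Related genes were named where 2-fold from fed (at most 12, largest first, and Slc47a1 and Abcc6 were named after their values were seen), context lists by their 3 highest genes, with Por and Cyp2c29 among them. One related gene is not reported here. Likeness took the 3 genes nearest to each transporter.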

Additional observations from a re-analysis of the deposited data

Results flagged for a closer look

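In 3 cases a transporter lay on opposite sides of fed at the 2 ends of the Cyp2f2 to Cyp2e1 axis, with both intervals apart from 0; the difference between the ends was not tested. Slco1a1 at 16 h had a log2 ratio to fed of -0.12 in the Cyp2f2-high part and 0.13 in the Cyp2e1-high part. Slco1b2 at 24 h had 0.089 in the Cyp2f2-high part and -1.14 in the Cyp2e1-high part. Abcc2 at 24 h had 0.43 in the Cyp2f2-high part and -0.40 in the Cyp2e1-high part. For both genes 70.6% of the cells of the 24 h Cyp2e1-high part were in shallow unnamed clusters, against 32.7% in the fed library.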

How the results depend on the processing

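Of 176 recounts of transporters past a threshold, 151 were within 1.5 times the reported count and 25 were not; 0 called ratios changed sign. Against fed, the count was 1 at 4 h with 2 to 15% mitochondrial UMIs (Slco1a1), 2 at 8 h without the acute-phase-high cells (with Slco1b2), 0 at 8 h in barcodes under 2%, 1 at 16 h with a minimum of 10 CPM or none (Slc22a7), and 2 at 24 h under those minimums (with Slc22a7) and in barcodes under 2% (with Slco1b2). Between fasted libraries it was 0 from 4 to 8 h, 1 from 8 to 16 h and 4 from 16 to 24 h in barcodes under 2%, and 1 from 16 to 24 h with median-of-ratios scaling. Along the axis it was 4 (outer 2 of 5 parts) and 1 (no lower mitochondrial limit, or means over cells) in the fed library, 2 at 4 h with no lower limit, and at 24 h 0 (landmark genes, thinned axis, 3000 UMIs, TMM, without unnamed clusters), 2 (outer 2 of 5 parts), 4 (means over cells) and 5 (no lower limit, or 2 to 15%). The cause was not tested.

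Slco1a1 at 24 h kept a log2 ratio to fed between -4.02 and -3.05 in 16 alternatives, and Abcc3 at 8 h between -1.95 and -0.45, the latter in barcodes under 2%. Abcc2 at 24 h changed sign in 5 of 16. Counts of all genes past 2-fold also moved: with a minimum of 10 CPM they were 277 higher and 420 lower at 4 h (reported 173 and 174), 430 and 803 at 8 h (244 and 353), 222 and 255 at 16 h (101 and 123) and 359 and 628 at 24 h (201 and 314), and with no minimum 1679 to 1919 higher and 2592 to 4309 lower. With 2 to 15% mitochondrial UMIs 350 were lower at 4 h, with no lower limit 303 were higher at 24 h, and in barcodes under 2% 111 were higher and 303 lower at 4 h, 669 lower at 8 h and 180 higher at 16 h. TMM scaling moved the median of all genes by 0.11, 0.16, 0.04 and 0.14 (log2) at 4, 8, 16 and 24 h. Subtraction of free RNA by hemoglobin was not run, since 3 libraries had too few hemoglobin UMIs; subtracting 10% of the profile of low-mitochondrial barcodes, leaving out unnamed clusters and using only barcodes under 2% were added after seeing the data. No paired analysis was possible because each time was 1 library. Depth limits Slc22a7, with 509 and 512 UMIs at 16 and 24 h.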
